A study of Homo sapiens with 33 samples.

Results

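BCR, ABL1 and 7 of their signalling partners (GAB2, GRB2, CRKL, STAT5A, STAT5B, PIM1 and SOS1) were examined in K562, a human erythroleukemia cell line that carries the BCR-ABL1 fusion gene. The 9 genes were chosen by name and each matched 1 row among the 58293 gene rows of the input RNA table. Of the 900 EZH2 RIP-seq fragments listed in the fractionated RNA-seq tables, 9 lay inside the spans of these genes, 3 in BCR and 6 in ABL1, and the other 7 genes held none. All samples used were of wild-type K562 cells without knock-out or knock-down of the LEVER locus that the study was about. The input RNA came from formaldehyde-fixed cells whose nuclei were sonicated for RNA immunoprecipitation, and its level per gene is given as FPKM, a fragment count normalised for transcript length and sequencing depth. The cytoplasmic, nuclear, nuclear polyA+ and nuclear polyA− RNA make up the fractions, polyA+ being the part of nuclear RNA bound by poly(A) beads and polyA− the unbound rest, and each of the 5 samples is 1 library, so no replicate error can be given.

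BCR-ABL1 arises from a translocation that joins the 5′ exons of BCR to the ABL1 exons that follow its first, and the resulting protein is a constitutively active tyrosine kinase that drives chronic myeloid leukemia. BCR contributes an oligomerization domain and a phosphorylated docking site for the adaptor GRB2, which brings in the RAS exchange factor SOS1 and the docking protein GAB2, while CRKL is a prominent substrate of the kinase and STAT5A and STAT5B carry the signal to target genes such as PIM1. EZH2 is the catalytic subunit of PRC2, a complex that methylates histone H3 and binds RNA with a preference for G-rich stretches. Gene-level values do not separate the fusion transcript from the transcripts of the unrearranged BCR and ABL1 genes, so a BCR or ABL1 value holds both. In bulk RNA, fewer cells that express a gene and less RNA per cell cannot be told apart.

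The fragments are shown here through the sequences on which the later comparisons turn, all read 5′ to 3′ from GRCh38. The first is exon 2 of BCR, the only exon of either gene that lies in a member fragment, printed in capitals between 30 bases of intron on each side. The others are the 150 bases with the most G in BCR fragments 1 and 3 and in ABL1 fragments 4 and 5, with each run of 3 or more G in capitals. They were picked for their G content, so that content is a description.
BCR exon 2 with 30 bases of intron on each side (chr22:23253769-23254010, plus strand): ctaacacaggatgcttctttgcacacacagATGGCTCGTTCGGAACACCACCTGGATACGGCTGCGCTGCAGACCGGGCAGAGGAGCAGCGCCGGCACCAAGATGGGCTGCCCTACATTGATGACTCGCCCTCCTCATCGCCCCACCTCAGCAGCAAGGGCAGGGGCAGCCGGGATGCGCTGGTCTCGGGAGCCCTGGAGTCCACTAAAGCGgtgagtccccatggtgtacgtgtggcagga
BCR fragment 1 (chr22:23213261-23213410, plus strand): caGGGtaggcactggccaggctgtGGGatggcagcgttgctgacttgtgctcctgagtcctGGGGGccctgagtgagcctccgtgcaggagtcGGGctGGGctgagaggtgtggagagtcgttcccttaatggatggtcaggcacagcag
BCR fragment 3 (chr22:23267188-23267337, plus strand): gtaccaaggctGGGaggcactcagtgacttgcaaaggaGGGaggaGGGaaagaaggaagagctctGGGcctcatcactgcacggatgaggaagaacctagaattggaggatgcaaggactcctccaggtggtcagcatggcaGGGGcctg
ABL1 fragment 4 (chr9:130779044-130779193, plus strand): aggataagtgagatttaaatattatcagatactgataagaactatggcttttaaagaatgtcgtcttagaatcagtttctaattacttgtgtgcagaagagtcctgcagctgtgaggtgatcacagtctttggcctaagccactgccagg
ABL1 fragment 5 (chr9:130790860-130791009, plus strand): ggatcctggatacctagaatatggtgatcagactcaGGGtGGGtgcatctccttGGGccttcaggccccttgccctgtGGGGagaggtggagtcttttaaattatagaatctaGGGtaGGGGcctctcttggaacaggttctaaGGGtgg
The window of BCR fragment 1 was 40.7% G with 5 such runs and that of BCR fragment 3 was 37.3% G with 5. In ABL1 fragment 5 it was 33.3% G with 7 runs. The richest window of ABL1 fragment 4 was 23.3% G and held 0 runs, although the whole fragment had 5.54 runs of GGG per kb. That fragment is 361 bp long, against 4077 bp for BCR fragment 1. A longer fragment offers more windows to pick from, so these richest windows do not rank the fragments.

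The input RNA held the markers of its label. All 10 markers of K562 cells, the embryonic and fetal globins and erythroid factors among them, had an FPKM of at least 1, from 4.73 for HBA1 to 218 for HBG2. Of 8 markers of other cell types, 6 were below 1, including the T cell gene CD3E at 0.150, and the exceptions were the epithelial gene EPCAM at 27.9 and the endothelial gene PECAM1 at 1.79. Across the 900 fragments the cytoplasmic library had 7929 reads, the nuclear library 105661, polyA+ 57985 and polyA− 106051. These are sums over fragments and not the depths of the libraries, so the counts below are given as deposited.

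All 9 genes were expressed in the input RNA, with an FPKM of at least 1 in 9 of 9, against 21.8% of all rows. Their FPKM ran from 7.23 to 48.5 with a median of 23.6, whereas the median of all rows was 0.0680. That of the 19757 protein-coding rows was 0.902, and that of the 12726 rows with an FPKM of at least 1 was 5.77. Every member stood among the 10% of rows with the highest FPKM, at percentiles from 90.5 to 98.8. Against the rows with an FPKM of at least 1 their percentiles ran from 56.3 to 94.4, and 4 of the 9 were in the highest 10%.

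BCR, whose protein holds a serine/threonine kinase domain and a GTPase-activating domain for RAC, had an FPKM of 44.9 with bounds of 39.2 to 50.5 (ENSG00000186716.20, chr22:23179704-23318037, plus strand). ABL1, the tyrosine kinase, had an FPKM of 12.5 with bounds of 11.5 to 13.5 (ENSG00000097007.17, chr9:130713946-130887675, plus strand). BCR was thus 3.58-fold above ABL1, and their bounds did not overlap. The rows of BCR-like sequences were near 0: the 10 rows of BCR pseudogenes had FPKM from 0 to 0.202, and 1.59% of the 100-base windows of the BCR transcript were found in them.

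Among the adaptors, CRKL, an SH2 and SH3 adaptor, was the highest with an FPKM of 36.5 (34.5 to 38.5; ENSG00000099942.12, chr22:20917426-20953749, plus strand). GRB2, which links phosphorylated receptors and BCR to SOS1, had 23.6 (20.3 to 26.9; ENSG00000177885.13, chr17:75318076-75405709, minus strand). GAB2, a docking protein for SHP2 and PI3K, had 7.23 (5.60 to 8.85; ENSG00000033327.12, chr11:78215297-78418348, minus strand), the lowest value of the 9. The adaptors therefore spread over a wide range: CRKL was 1.55-fold above GRB2 and GRB2 was 3.26-fold above GAB2, in both cases without overlap of the bounds. SOS1, the exchange factor that loads RAS with GTP, had an FPKM of 17.4 (14.5 to 20.3; ENSG00000115904.12, chr2:38981396-39124345, minus strand), and the bounds of GRB2, which was 1.35-fold higher, just cleared those of SOS1.

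STAT5A, a transcription factor that the kinase activates, had the highest FPKM of the 9 at 48.5 (44.6 to 52.4; ENSG00000126561.16, chr17:42287547-42311943, plus strand). Its close relative STAT5B, which lies next to it on the opposite strand, had 19.2 (16.9 to 21.6; ENSG00000173757.9, chr17:42199168-42276707, minus strand). STAT5A was 2.52-fold above STAT5B with separate bounds. The pair is uncertain to the extent that their transcripts are alike: 371 of the 3671 windows of 100 bases of STAT5A (10.1%) occur in STAT5B, and these are 7.45% of the windows of STAT5B. No such window was shared with the relatives searched for ABL1, GAB2, GRB2, CRKL, PIM1 or SOS1. PIM1, a serine/threonine kinase induced by STAT5, had an FPKM of 41.8 (39.0 to 44.6; ENSG00000137193.13, chr6:37170203-37175426, plus strand).

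In order of FPKM, the genes were STAT5A, BCR, PIM1, CRKL, GRB2, STAT5B, SOS1, ABL1 and GAB2. The bounds of STAT5A and BCR overlapped, as did those of BCR and PIM1, of GRB2 and STAT5B and of STAT5B and SOS1. Those neighbours are not separated by this estimate. The steps from PIM1 to CRKL, from CRKL to GRB2, from SOS1 to ABL1 and from ABL1 to GAB2 lay outside the bounds, which belong to the estimate of 1 library and hold no error between cultures.

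The wider pathway was expressed in most of its parts. Of 75 further genes in 8 lists, 59 (78.7%) reached an FPKM of 1, as did 21.8% of all rows. The median FPKM of the 75 was 7.64, below the 23.6 of the members. Only 19757 of the 58293 rows are protein-coding, and the median FPKM of those was 0.902. The counts by list that follow include the members, 84 genes in all, and stand against the same 21.8%. In the RAS and MAPK arm 15 of 17 genes passed, and those below were DUSP6 and SPRY2, both feedback inhibitors, at an FPKM of 0.128 and 0.665, while their relative SPRY4, named after its value was seen, had 5.02. In the PI3K and AKT arm 12 of 14 passed, with the kinase MTOR at 19.7 and the transcription factor FOXO1 at 0.253. In the JAK and STAT arm 8 of 9 passed, with STAT3 at 28.5 and the kinase JAK1 at 18.8. The lymphoid kinase JAK3 was the one below, at 0.0326. The STAT5 targets and feedback inhibitors passed in 10 of 12, led next to PIM1 by the survival gene MCL1 at 33.3 and the cyclin CCND2 at 24.4, whereas the cytokine OSM was listed at 0 and the inhibitor SOCS1 was at 0.219.

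The SRC family kinases, which act beside BCR-ABL1, had the lowest share of the 8 lists. Of these 3 of 8 passed, with YES1 at an FPKM of 25.7 and LYN at 18.7, and with the myeloid kinase FGR at 0.0622. Among the adaptors and docking proteins 12 of 14 passed, with GRAP2 and SH2B3 each at 12.5, and with GRAP listed at 0 and DOK2 at 0.193. The ABL1 paralog ABL2 had 4.67 and the BCR paralog ABR 0.861. Phosphatases passed in 5 of 6: PTPN11, which encodes SHP2 and binds GAB2, was the highest at 40.7, followed by PTPN12 at 25.8, and PTPN6 was the one below at 0.345, with PTPN1 at 10.8.

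EZH2 RIP-seq fragments were found in 2 of the 9 genes. Among all rows with an FPKM of at least 5, 3.48% held a fragment, and among those that also span at least 100 kb it was 13.3%. BCR (138 kb) and ABL1 (174 kb) were 2 of the 4 long members, whereas SOS1 (143 kb) and GAB2 (203 kb), long as well, held none, nor did any of the 5 shorter genes. With 6 fragments, ABL1 was among 35 rows with at least that many. The listed fragments come from RIP-seq peak calling by the authors, whose values were not analysed here, so a gene without a listed fragment is not shown to lack binding.

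The 3 BCR fragments lay before exon 5, within the first 87.6 kb of the 138 kb of the gene. Fragment 1 (chr22:23213260-23217336, 4077 bp) was in intron 1, fragment 2 (chr22:23252627-23254450, 1824 bp) contained the 182 bp of exon 2, and fragment 3 (chr22:23265037-23267339, 2303 bp) was in intron 4, ending 1.07 kb before exon 5. The 6 ABL1 fragments were all intronic by the GENCODE 44 annotation. Fragments 1 to 5 lay in the first intron of the long ABL1 isoform, upstream of the point where the short isoform begins, and fragment 6 (chr9:130860100-130862745, 2646 bp) lay in intron 3 and ended 0.018 kb before exon 4. Which side of the fusion junction the fragments of the ABL1 first intron occupy in K562 was not analysed here.

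**Figure D1:**
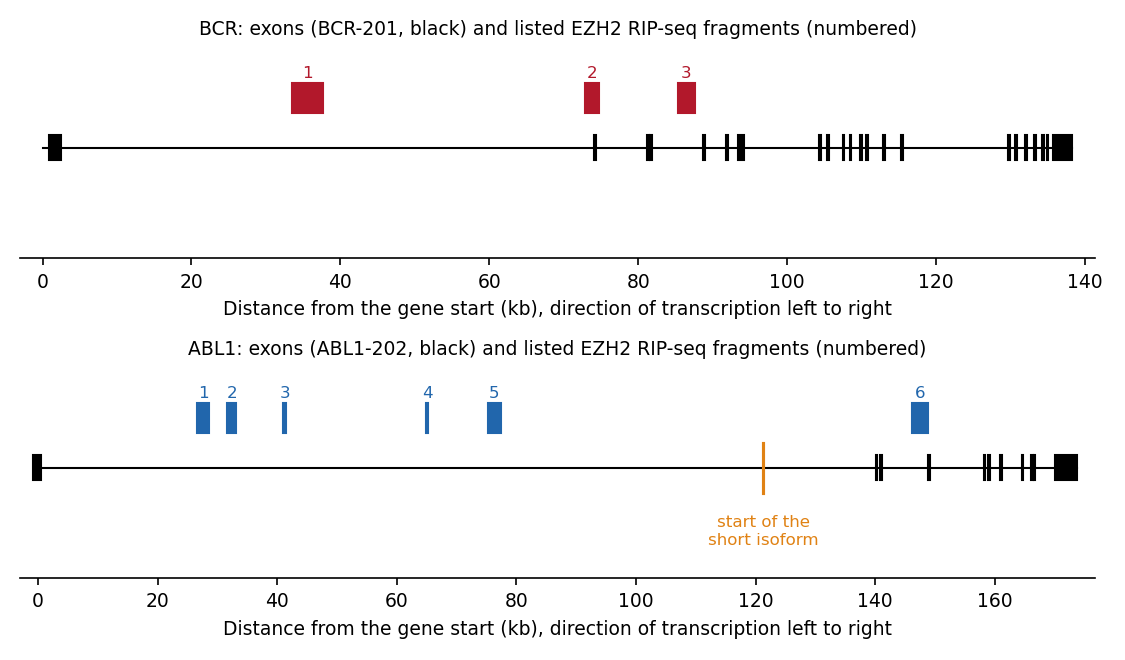
Position of the listed fragments (coloured, numbered) and of the annotated exons (black) along BCR and ABL1, in kb from the start of each gene. The BCR fragments lie within the first 87.6 kb of 138 kb, and 5 of the 6 ABL1 fragments precede the start of the short isoform (orange).

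The BCR fragments differed among themselves in how their reads were split between cytoplasm and nucleus. Fragment 1 had 4 cytoplasmic and 52 nuclear reads, a nuclear to cytoplasmic ratio of 13.0 (exact 95% Clopper-Pearson interval 4.78 to 49.5, counting error only). Fragment 2, with exon 2, had 48 cytoplasmic and 44 nuclear reads, a ratio of 0.917 (0.595 to 1.41). Fragment 3 had 21 cytoplasmic and 39 nuclear reads, a ratio of 1.86 (1.07 to 3.32). Against all listed fragments, whose median ratio was 18.8, fragments 2 and 3 stood at the cytoplasmic end: 5 of 900 had a lower ratio than fragment 2 and 50 had a lower one than fragment 3. Among the 747 fragments without any exon base, 23 had a lower ratio than fragment 3.

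Between fragments of the same libraries the depths cancel, so the ratio of their nuclear to cytoplasmic ratios does not depend on the scaling. These contrasts were chosen after the values were seen. The ratio of fragment 1 was 14.2-fold that of fragment 2 (4.58 to 57.4) and 7.00-fold that of fragment 3 (2.09 to 29.8). Fragment 3 exceeded fragment 2 by 2.03-fold, with an interval of 0.986 to 4.20 that includes 1. In BCR the cytoplasmic reads were thus densest where exon 2 lies, at 26.3 reads per kb, against 0.981 in fragment 1 and 9.12 in fragment 3. One count per fragment does not resolve where in the fragment its reads lay.

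The polyA− to polyA+ ratio did not separate the BCR fragments in the same way. In fragment 1 there were 26 reads from polyA+ and 61 from polyA− RNA, which gave 2.35 (1.46 to 3.87). Fragment 2 had 21 and 52, or 2.48 (1.47 to 4.33). Fragment 3 had 20 and 51, or 2.55 (1.49 to 4.52). The 3 values lay within each other's intervals, and the ratio over fragments 1 and 3 was 0.983 times that of fragment 2 (0.504 to 1.88).

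In total, the ABL1 fragments had more nuclear and fewer cytoplasmic reads than those of BCR. Fragment 1 (chr9:130740529-130742538, 2010 bp) had 20 cytoplasmic and 147 nuclear reads, a ratio of 7.35 (4.59 to 12.4). Fragment 5 (chr9:130789139-130791401, 2263 bp) had 15 and 237, a ratio of 15.8 (9.39 to 28.7). Fragment 6 had 15 and 61, a ratio of 4.07 (2.28 to 7.70). The remaining fragments had almost no cytoplasmic reads, so that their ratios are imprecise. Fragment 2 (chr9:130745576-130747041, 1466 bp) had 3 and 65, a ratio of 21.7 (7.09 to 108). Fragment 3 (chr9:130754878-130755453, 576 bp) had 1 and 61, a ratio of 61.0 (10.5 to 2448). Fragment 4 (chr9:130778836-130779196, 361 bp) had 1 and 60, a ratio of 60.0 (10.4 to 2409). With nuclear reads from 60 to 237, each ABL1 fragment exceeded each BCR fragment, which had 39 to 52.

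Within ABL1, the 5 fragments before the start of the short isoform summed to 40 cytoplasmic and 570 nuclear reads, a ratio of 14.2 (10.3 to 20.2). This was 3.50-fold the ratio of fragment 6, the only one downstream (1.69 to 6.92). Fragment 5 alone exceeded fragment 6 by 3.89-fold (1.66 to 9.01). Fragment 1 exceeded it by 1.81-fold with an interval of 0.802 to 3.99, so that not every fragment of the first intron was separated from it.

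In the nuclear polyA fractions, the ABL1 reads leaned further to polyA− than those of BCR. Fragment 1 had 32 polyA+ and 164 polyA− reads (5.12; 3.49 to 7.74), and fragment 2 had 9 and 67 (7.44; 3.70 to 17.0). Fragment 3 had 22 and 69 (3.14; 1.92 to 5.32), and fragment 4 had 13 and 77 (5.92; 3.27 to 11.6). Fragment 5 had 64 and 264 (4.12; 3.13 to 5.51), and fragment 6 had 25 and 72 (2.88; 1.80 to 4.74). Between the fragments before and after the start of the short isoform this ratio differed by 1.59-fold, with an interval of 0.931 to 2.64 that includes 1.

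**Figure D2:**
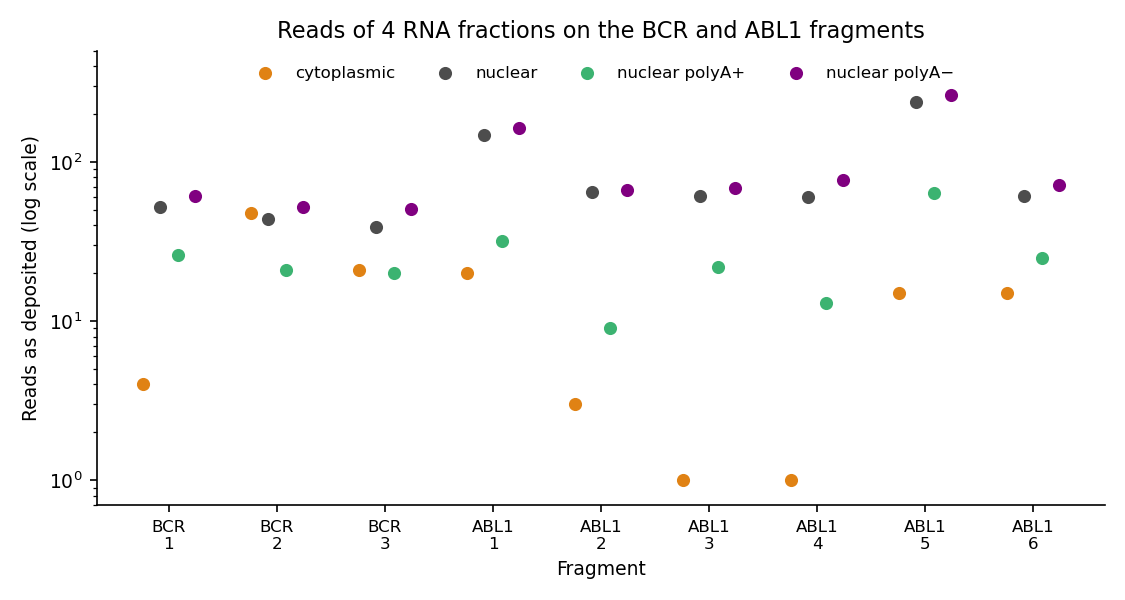
Reads of the 4 fraction libraries on each BCR and ABL1 fragment (y axis, log scale, counts as deposited and not scaled by depth); each point is 1 library. Cytoplasmic reads (orange) fall to 1 in ABL1 fragments 3 and 4 and reach 48 in BCR fragment 2, the one fragment where, in these counts, they exceed the nuclear reads (44).

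Taking each gene as a whole, the BCR fragments had 73 cytoplasmic, 135 nuclear, 67 polyA+ and 164 polyA− reads, and the ABL1 fragments had 55, 631, 165 and 713. The nuclear to cytoplasmic ratio was 1.85 in BCR (1.38 to 2.49) and 11.5 in ABL1 (8.70 to 15.4) by counts as deposited, but 0.139 and 0.861 when each library was divided by its sum over the 900 fragments. The ABL1 ratio was 6.20-fold that of BCR (4.09 to 9.41), and 3.15-fold without the BCR fragment that holds exon 2 (1.79 to 5.43). The polyA− to polyA+ ratio was 2.45 in BCR (1.83 to 3.30) and 4.32 in ABL1 (3.64 to 5.15), a difference of 1.77-fold (1.25 to 2.48), also 1.77-fold without exon 2 (1.18 to 2.64). With the median ratio of the 840 fragments with reads in both polyA libraries set to 1, the polyA− to polyA+ ratio of BCR was 0.692. Both contrasts, pooled over the fragments of each gene, were beyond counting error and are free of the library scaling. Their intervals leave out the spread between fragments of a gene. In nuclear to cytoplasmic ratio, BCR fragment 1 (13.0) exceeded ABL1 fragments 1 (7.35) and 6 (4.07). Overlapping and neighbouring reads of 1 gene are not independent, so these intervals are no test of a difference between cultures.

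Pooled and taken by length, the ABL1 fragments stood above those of BCR in nuclear RNA. The order was the reverse in the input RNA, where FPKM is taken over the whole transcript. The fragments cover 9322 bp of ABL1 and 8204 bp of BCR, mostly intron, so they do not measure the nuclear level of either gene. The nuclear library had 67.7 reads per kb on the ABL1 fragments and 16.5 on those of BCR, 4.11-fold more in ABL1, while the FPKM of BCR was 3.58-fold above that of ABL1. The cytoplasmic density, in contrast, was 0.663 times that of BCR. The polyA− density was 3.83-fold and the polyA+ density 2.17-fold that of BCR. The densest member fragment in nuclear RNA was ABL1 fragment 4 with 166 reads per kb, exceeded by 16 of the 900, where the median was 27.7. BCR fragment 1 was the least dense with 12.8. Not every ABL1 fragment was denser than every BCR fragment: ABL1 fragment 6 had 23.1 and BCR fragment 2 had 24.1.

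Against a fold of at least 2 between counts as deposited, with the smaller count set to at least 3 reads, 7 of the 9 fragments were higher in nuclear RNA, against 88.4% of all 900; the exceptions were BCR fragments 2 and 3. In the same way 9 of 9 were higher in polyA− than in polyA+ RNA, against 64.3% of all. The count of 7 in nuclear RNA is thus not above the share of the whole list. Direction depends on depth: with each library divided by its sum over the 900 fragments, 0 of the 9 were at least 2-fold higher in nuclear RNA and 3 were at least 2-fold higher in cytoplasmic RNA, and 4 were at least 2-fold higher in polyA− and 0 in polyA+ RNA. With the median ratio set to 1, the nuclear against cytoplasmic split was 0 against 4. The polyA− against polyA+ split was 1 against 0. That median was over the fragments with reads in both libraries, 687 for the first pair and 840 for the second. Without the 10 fragments with the most reads in the sums, these splits were 0 against 3 and 3 against 0. All of these scalings come from the listed fragments themselves, so they do not estimate depth. The paper, which normalised to total mapped reads, reports most of its EZH2-bound fragments as higher in nuclear than in cytoplasmic RNA. From its polyA fractions it proposes that most are not polyadenylated. Its set of fragments was larger than the 900 here, and its nuclear share counted any excess of reads, not a fold of 2.

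**Figure D3:**
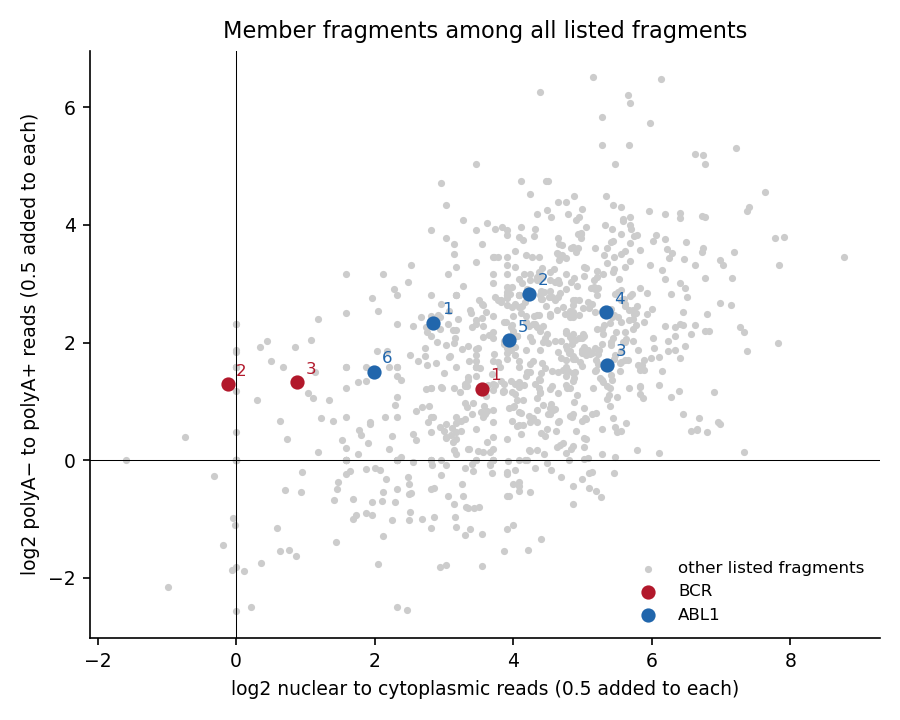
Each point is 1 of the 900 listed fragments, placed by the log2 nuclear to cytoplasmic ratio (x axis) and the log2 polyA− to polyA+ ratio (y axis) of its reads, with 0.5 added to each count and counts not scaled by depth, so that only relative positions carry over to another scaling. BCR fragments 2 and 3 (red) lie to the left of all 6 ABL1 fragments (blue), and BCR fragment 1 lies within their range on the x axis and below all of them on the y axis.

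The base composition of the fragments was read on the transcribed strand and set beside 698 listed fragments whose genes lie on 1 strand. The BCR fragments had 26.2%, 26.8% and 24.1% G, above the median of 20.4%, and 15.2, 18.6 and 11.3 runs of GGG per kb against 8.90. Their G content was nevertheless below the 27.1% of the whole BCR gene. The ABL1 fragments varied from 18.6% G in fragment 2 to 29.5% G in fragment 3, while the whole ABL1 gene had 22.6% G. The content of G and A together was below the median of 52.8% in 7 of the 9 fragments, among them all 3 of BCR. It was 49.0% in BCR fragment 2 and 46.5% in BCR fragment 3, and ran from 45.1% in ABL1 fragment 2 to 59.7% in ABL1 fragment 3. The whole BCR and ABL1 genes were below that median as well, each with 48.7% of G and A together. A run of GGG was present in 99.6% of the 698, searched on the transcribed strand only, so its presence does not distinguish the members.

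Fragments in other genes of the pathway give a scale for these values. The 75 further genes held 12 fragments in 5 genes, among them RASA1, a GTPase-activating protein for RAS, the kinases BRAF and JAK2, and BCL2L1, a survival gene downstream of STAT5. Of the 12, 11 were at least 2-fold higher in nuclear RNA and 6 at least 2-fold higher in polyA− RNA by counts as deposited, against 88.4% and 64.3% of all 900, and these directions depend on depth as those of the members do. The 1 called the other way, higher in polyA+ RNA, was in JAK2, with 64 polyA+ and 18 polyA− reads (0.281). The 4 fragments of BCL2L1 had 14 cytoplasmic, 201 nuclear, 98 polyA+ and 261 polyA− reads, with ratios of 14.4 (8.36 to 26.7) and 2.66 (2.10 to 3.39). The 3 fragments of RASA1 (58, 538, 449 and 422 reads) overlap the gene CCNH on the other strand, and their reads cannot be told apart here. BRAF and JAK2, with 2 cytoplasmic reads each, had 72 and 60 nuclear reads.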

How the data were processed

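K562 RNA was used from 5 samples with 1 library each, grouped by their labels. The authors trimmed reads with TrimGalore, used STAR for mapping (GRCh38, GENCODE 26), and discarded duplicate reads and alignments of low mapping quality. The authors deposited raw read counts per EZH2 RIP-seq fragment for 4 fractions (featureCounts) and FPKM per gene with confidence bounds for the input RNA (cuffdiff). Versions and the strand setting of counting are not given in the sources used here. The other assays of the study were not analysed here.

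Members were matched by gene name, and fragments with at least 50% of their bases in a gene's span were placed in it. Exons were taken from GENCODE 44 on the same build. The members and lists were chosen with earlier results of these data known. From each pathway list the 2 highest and 2 lowest genes by FPKM that are no member were named, apart from some that are not reported here. Around BCR and ABL1, within 500 kb, the nearest 3 genes on each side and those with an FPKM of at least 10 were named.

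With 1 library per fraction, reads of libraries were compared, not conditions, and no p-value was computed. Ratios have exact 95% Clopper-Pearson intervals, and ratios of 2 ratios have exact conditional 95% intervals of the odds ratio. All cover counting error only. The median of 900 fragments had 2 cytoplasmic and 53.5 nuclear reads, so cytoplasmic counts limit the precision. A fragment was called at a fold of 2, with a floor of 3 reads per library. The calculations were tested on simulated data. Alternatives were other scalings, folds, overlaps, read minimums, comparison sets, FPKM thresholds and pseudocounts, and BCR without its exon 2 fragment, which was added after the data were seen. The work was done with scipy 1.17.1 and pysam 0.24.0 in Python 3.11.15, with pandas 2.3.3 for tables and matplotlib 3.10.9 for figures.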

Additional observations from a re-analysis of the deposited data

How the results depend on the processing

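Of 36 alternatives over 9 results, 14 kept the direction and stayed within the limits set for no change (for counts, 1.5 times). Another 15 moved past them and 7 reversed a direction. The reversals came from the scaling of the libraries, whose depths were not known. The scalings were taken from the listed fragments themselves, so they remove any excess the fragments share and do not estimate depth. In order, they used sums over the 900 fragments, the median ratio of fragments with reads in both libraries, and sums without the 10 most-read fragments. With them, the fragments called higher in nuclear RNA went from 7 to 0, 0 and 0. The nuclear to cytoplasmic ratio of BCR went from 1.85 to 0.139, 0.0841 and 0.127, and that of ABL1 from 11.5 to 0.861, 0.521 and 0.787. For ABL1 the intervals of 0.861 (0.653 to 1.16) and 0.787 (0.597 to 1.06) include 1. The fragments called higher in polyA− RNA went from 9 to 4, 1 and 3, and to 5 with a fold of 3. The polyA− to polyA+ ratio of BCR went from 2.45 to 1.34, 0.692 and 1.06, and that of ABL1 from 4.32 to 2.36, 1.22 and 1.86. These shifts follow from dividing by 13.3, 22.0 and 14.6 for the first ratio and by 1.83, 3.54 and 2.32 for the second. Without the exon 2 fragment the BCR nuclear to cytoplasmic ratio was 3.64. The number of members in the highest 10% by FPKM was 9 among all rows, 4 among rows with an FPKM of at least 1 and 5 among protein-coding rows. Pathway genes counted as expressed moved from 59 of 75 to 69 at an FPKM of 0.1, where 45.8% of all rows passed, and to 48 at 5, where 11.8% did. No replicate could be left out, because each group is 1 library. No paired analysis was possible because the replicate numbers shared in the labels belong to samples not analysed here. Cytoplasmic counts of 1 to 4 on 4 of the 9 fragments limit the precision of those ratios.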

Other observations

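The genes that flank ABL1 and BCR differed in level. Within 500 kb of ABL1, 5 of 13 rows on its 3′ side and 3 of 9 on its 5′ side had an FPKM of at least 1. Among all rows, 21.8% did. NUP214, a nuclear pore gene 238 kb beyond ABL1, stood out with an FPKM of 110 (103 to 118), 8.81-fold that of ABL1, and 230 of the 58293 rows were higher. It also held 2 listed fragments, with 83 cytoplasmic and 188 nuclear reads on the first and 55 and 308 on the second. The other 3′ rows with at least 10 were FAM78A with 11.6 and RP11-544A12.4 with 11.3. The nearest 3′ rows, QRFP, FIBCD1 and RP11-83J21.3, had only 0.628, 0.0518 and 0.738. On the 5′ side, the nearest gene EXOSC2, an RNA exosome subunit, had 23.4, PRDM12 was listed at 0, RP11-57C19.2 had 0.134 and FUBP3 had 14.3.

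Around BCR most rows had an FPKM below 1. On its 5′ side, 2 of 58 rows had an FPKM of at least 1 and 40 were listed at 0. Many of these 58 rows are immunoglobulin lambda gene segments (IGLV, IGLJ and IGLC). On the 3′ side of BCR 4 of 29 rows reached 1, the highest being CHCHD10 at 50.3 (42.9 to 57.7) and the chromatin remodelling subunit SMARCB1 at 16.8. The share of all rows at 1 or more was 21.8%. The nearest 5′ rows RAB36 and RSPH14 had 0.208 and 1.57, and U7 was listed at 0. The nearest 3′ row AP000343.1 had 0.242, and AP000343.2 and CES5AP1 were listed at 0.

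The listed fragments nearest to BCR fragment 1 in both log2 ratios, among 467 with at least 50 nuclear reads, were in MBNL1, THOC1 and GPHN, at distances of 0.0534, 0.116 and 0.135. Those nearest to ABL1 fragment 5 were in STXBP5, E2F3 and CHST11, at 0.140, 0.143 and 0.168.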
